A study of Homo sapiens with 10 samples.

Results

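The genes described here are named for the proteins of the human mitochondrial ribosome. They were taken as the protein-coding genes whose symbol is MRPL or MRPS followed by a digit, after the gene identifiers of the count tables were joined to GENCODE symbols. This gave 78 of the 63254 genes in the tables, of which 49 carry the MRPL symbol of the large subunit and 29 the MRPS symbol of the small subunit. Genes were assigned to a subunit by symbol, although MRPS30 and MRPS18A encode proteins that sit in the large subunit and MRPS36 encodes a protein known as a subunit of the 2-oxoglutarate dehydrogenase complex. The RNA came from U2OS, a line of human osteosarcoma cells, 48 h after siRNA was used for either a control knockdown (siCtrl) or a knockdown of the RNA helicase DDX41 with a pool of siRNAs (siDDX41). Each group had 5 stranded libraries of polyadenylated RNA, numbered 1 to 5 and sequenced as single reads. Between 23393764 and 24598860 reads were counted per siCtrl library, and between 21807041 and 24896398 per siDDX41 library. Nothing in the labels says that the libraries of a group came from separate cultures, so the p-values measure only the spread between these samples.

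The mitochondrial ribosome translates the few membrane proteins of the respiratory chain that mitochondrial DNA encodes. Its RNAs are made inside the organelle, whereas its proteins are encoded in the nucleus, translated in the cytosol and imported, so that the large subunit, which forms peptide bonds, and the small subunit, which reads the mRNA, depend on many separate nuclear genes. Part of the proteins belong to families shared with bacterial ribosomes and the others were added during the evolution of mitochondria.

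DDX41 itself was measured first. In CPM (counts of a gene per 1000000 counts of its library, with library sizes scaled by TMM factors), DDX41 was at 49.1, 49.4, 47.3, 47.2 and 50.5 in siCtrl libraries 1 to 5 and at 11.5, 13.7, 12.4, 11.2 and 12.3 in siDDX41 libraries 1 to 5. The groups did not overlap, and DDX41 fell by 1.99 ± 0.049 (SE) on the log2 scale (quasi-likelihood test of edgeR, Benjamini-Hochberg adjusted, adjusted p = 4.47e-24). Of the genes that mark the cell of origin, the mesenchymal VIM, COL1A1 and SPARC had means of 2465, 1875 and 2807 CPM in siCtrl. RUNX2 of the osteoblast lineage had 32.4 CPM in siCtrl, while SP7 and BGLAP of the same lineage stayed under 0.2 CPM in every library. Of 5 mesenchymal markers, SPARC rose (log2 fold change 0.18), VIM and CDH2 fell (-0.087 and -0.12), and COL1A1 and FN1 were not called (-0.086 and -0.21). Of 4 osteoblast markers, 2 were tested and both moved with the knockdown. RUNX2 and ALPL fell by 0.40 and 0.70 on the log2 scale (adjusted p = 2.24e-09 and 5.51e-06, quasi-likelihood test of edgeR, Benjamini-Hochberg adjusted). SP7 and BGLAP were not tested (means of 0.016 and 0.091 CPM in siCtrl, 0.017 and 0.087 CPM in siDDX41). The sum of the 4, which rests on RUNX2 and ALPL, was at 36.1, 38.7, 38.8, 37.4 and 36.6 CPM in siCtrl and at 27.0, 30.01, 27.2, 26.9 and 27.7 CPM in siDDX41, without overlap. The summed level of 3 blood genes (CD34, PTPRC and HBB) was 30.5, 28.4, 31.5, 32.3 and 31.0 CPM in siCtrl libraries and 4.83, 5.52, 3.87, 5.79 and 6.002 CPM in siDDX41 libraries. Most of it was CD34, and HBB was at 0 in each library. PTPRC stayed under 0.7 CPM and went the other way, from a mean of 0.33 CPM in siCtrl to 0.54 CPM in siDDX41, which was not called. What part these markers have in the changes that follow was not tested.

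The mitochondrial ribosomal protein genes were called higher more often than lower, most of their changes were small, and MRPL18 and MRPL30 fell clearly further than any of the genes rose. Of the 78 genes, 75 passed edgeR's filter on low counts (48 of the large and 27 of the small subunit), and genes with an adjusted p under 0.01 over all 16143 tested genes were called. Of the 75 genes, 34 were higher in siDDX41 (45.3%), against 30.3% of all genes tested, and 15 were lower (20%), against 32.1%. Their median log2 fold change was 0.11, and that of all genes tested was -0.0014 and turned to 0.0053 with DESeq2 size factors. The median over the genes of the log2 deviation from their mean siCtrl level was 0.13, 0.048, 0.12, 0.11 and 0.13 in siDDX41 libraries 1 to 5 and 0.013, 0.032, -0.049, 0.0032 and -0.0041 in siCtrl libraries 1 to 5. The shift was thus smallest in siDDX41 library 2, and siCtrl library 3 was the lowest of its group. The quartiles of the 75 genes were -0.016 and 0.25, closer together than those of all genes, -0.32 and 0.25. Among called genes with a log2 fold change beyond 0.25 in size, 18 of the 75 genes were higher and 8 were lower. By the same 2 limits, 21.1% of all genes tested were higher and 25.4% were lower. In 28 of the genes every siDDX41 library was above every siCtrl library, which held for 26.7% of all genes tested, and in 14 every siDDX41 library was below, which held for 29.3%. The rises reached a log2 fold change of 0.52 at most, and the falls reached -0.90. Counts are shares of a library, so that fewer transcripts per cell and more transcripts of other genes cannot be told apart.

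**Figure D1:**
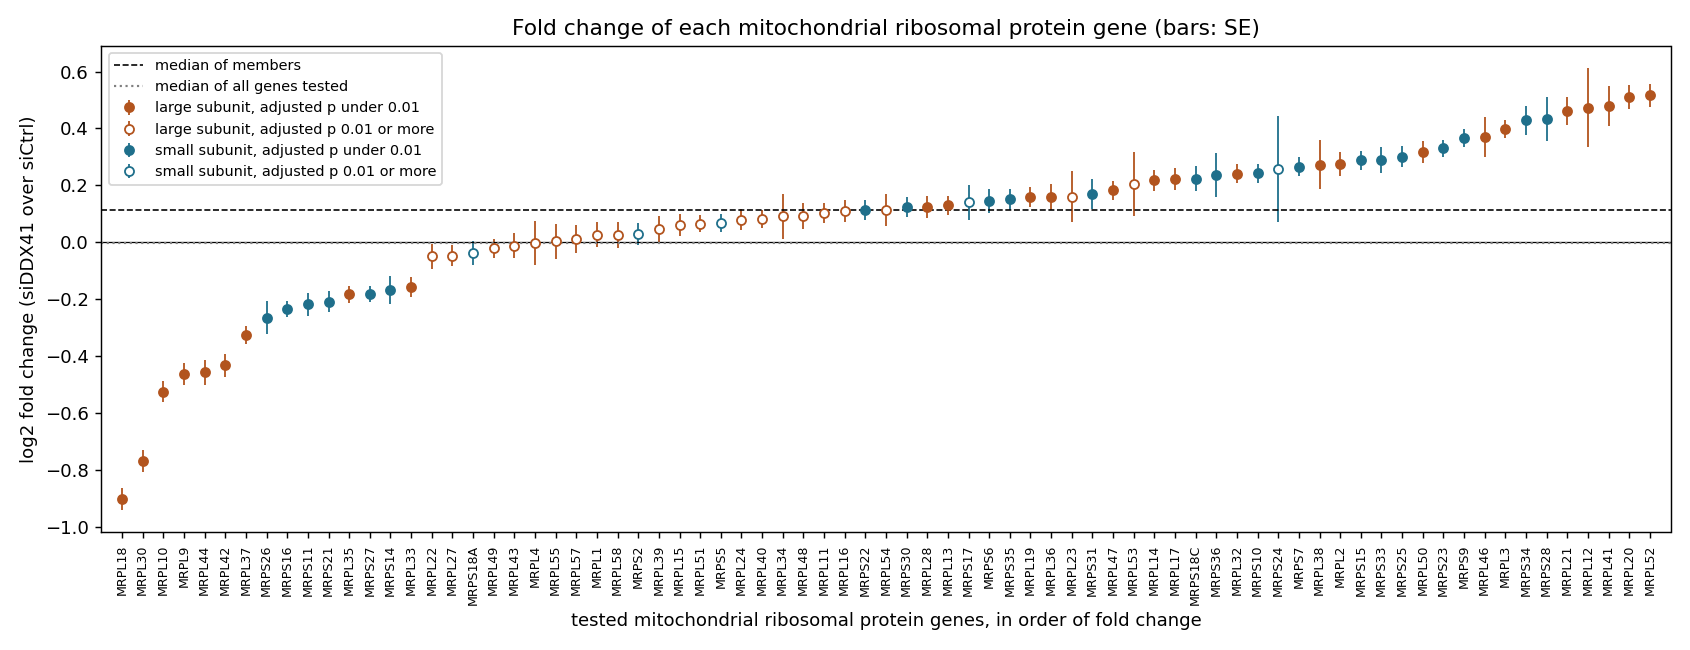
Log2 fold change (y axis, siDDX41 over siCtrl) of each of the 75 tested genes (x axis, in order of fold change), coloured by subunit, with SE as bars and filled points for adjusted p under 0.01. The left end falls steeply to -0.90 through 7 large subunit genes, while the right end rises gradually to 0.52, and the dashed line marks the median of 0.11.

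The large subunit held the 7 lowest fold changes of all 75 genes. MRPL18, on chromosome 6, had the lowest. It belongs to the family that binds 5S rRNA in the central protuberance of bacterial ribosomes. MRPL18 was at 81.3, 76.7, 71.8, 77.4 and 77.9 CPM in siCtrl libraries 1 to 5 and at 40.7, 39.7, 39.9, 43.4 and 42.6 CPM in siDDX41 libraries 1 to 5. The highest siDDX41 library lay far below the lowest siCtrl library. Its mean of 77.0 ± 3.4 CPM in siCtrl was 41.2 ± 1.6 CPM in siDDX41 (SD, 5 libraries each), which is -0.90 ± 0.038 on the log2 scale (SE, adjusted p = 1.02e-18 in the quasi-likelihood test of edgeR, Benjamini-Hochberg adjusted). MRPL30, on chromosome 2, followed. Its siCtrl libraries were at 43.2, 43.7, 44.6, 43.9 and 44.9 CPM and its siDDX41 libraries at 26.3, 25.3, 26.4, 25.9 and 25.6 CPM. Both groups were tight and far apart, with a log2 fold change of -0.77 ± 0.038 (SE, adjusted p = 5.52e-17 in the quasi-likelihood test of edgeR, Benjamini-Hochberg adjusted).

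The sequences just upstream of the start sites of these 2 genes are shown beside those of the 2 genes that rose most, MRPL52 and MRPL20, as the genes with the largest changes in either direction. They are from RefSeq (GRCh38.p14), written 5′ to 3′ on the strand of the named gene, and they end at the base before its start site. For MRPL30 the sequence is the whole stretch between its start site and that of MITD1 on the other strand (chr2:99181059-99181183, plus strand), and for the others it is the 120 bases before the start site (chr6:159790347-159790466, plus strand; chr14:22829767-22829886, plus strand; chr1:1407294-1407413, minus strand). Capitals mark CCGGAAG, the core that ETS factors such as GABP bind, and AAGATGGC, the core that YY1 binds, each read on either strand.
MRPL18: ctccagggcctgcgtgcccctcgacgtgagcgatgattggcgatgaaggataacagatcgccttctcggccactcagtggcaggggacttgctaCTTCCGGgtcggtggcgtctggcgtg
MRPL30: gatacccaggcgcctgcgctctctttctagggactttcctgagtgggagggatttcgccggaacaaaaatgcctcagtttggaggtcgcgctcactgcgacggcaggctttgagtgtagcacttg
MRPL52: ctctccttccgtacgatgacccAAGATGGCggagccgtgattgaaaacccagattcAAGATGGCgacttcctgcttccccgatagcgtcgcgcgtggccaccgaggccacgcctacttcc
MRPL20: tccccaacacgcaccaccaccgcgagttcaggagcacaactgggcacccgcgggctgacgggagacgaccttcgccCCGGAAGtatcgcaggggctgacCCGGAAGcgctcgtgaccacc
In these stretches MRPL52 carried AAGATGGC 2 times, MRPL20 carried CCGGAAG 2 times, MRPL18 carried CCGGAAG 1 time on the other strand and MRPL30 carried neither. The longer promoter windows counted next hold CCGGAAG or its reverse complement in all 4 genes, MRPL30 included, and AAGATGGC in MRPL52 and MRPL20.

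Across the family, CCGGAAG was about as common before genes that rose as before genes that fell, and AAGATGGC was found in a larger share before genes that rose, a difference over few windows that was not tested. Of the 78 genes, 69 had a promoter window in the RefSeq table, from 250 bases before to 50 bases after the start site. CCGGAAG or its reverse complement was in 30 of these 69 windows (43.5%), against 14.8% of the windows of 15344 protein-coding genes and 18.9% of the windows of 10637 tested genes. It was in 13 of 29 windows of called genes that rose and in 6 of 13 windows of called genes that fell. AAGATGGC or its reverse complement was in 21 of the 69 windows (30.4%), against 4.15% of the 15344 windows and 5.46% of those of tested genes. It was in 11 of 29 windows of genes that rose, in 2 of 13 of genes that fell and in 5 of 24 of genes that were not called. GCGCATGC, a core of NRF1 binding, or its reverse complement was in 6 of the 69 windows (8.70%), against 4.38% of the 15344 and 5.52% of those of tested genes, in 4 of 29 windows of genes that rose and in 0 of 13 of genes that fell. Related gene sets carried these letters too. CCGGAAG was in 32.8% of the windows of cytosolic ribosomal protein genes and 31.7% of those of respiratory chain genes (ATP synthase included). AAGATGGC was in 11.5% and 15.0%, and GCGCATGC in 4.92% and 20%. GGGCGGG, the GC box, was not more common in the family, with 32 of the 69 windows (46.4%) against 47.5% of the 15344 and 56.7% of those of tested genes. The GC box was in 17 of 27 small subunit windows (63.0%) and in 15 of 42 large subunit windows (35.7%), a difference that was not tested. It was in 15 of 29 windows of genes that rose, in 4 of 13 of genes that fell, in 32.8% of cytosolic ribosomal protein windows and in 31.7% of respiratory chain windows. The letters of CCGGAAG and AAGATGGC occurred together in 8 windows of the family and overlapped in 0 of them. A match describes the letters of a window and does not show a bound site.

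MRPL10 encodes the base of the stalk, which recruits translation factors. It was at 59.9, 60.7, 57.3, 60.0 and 60.5 CPM in siCtrl libraries and at 41.6, 39.6, 41.2, 40.8 and 44.2 CPM in siDDX41 libraries, without overlap, and its log2 fold change was -0.52 ± 0.036 (SE). MRPL9, of a family shared with bacteria, was at 54.0, 53.7, 52.6, 56.5 and 53.2 CPM in siCtrl and at 37.4, 37.1, 38.6, 41.6 and 41.4 CPM in siDDX41. The siDDX41 libraries of MRPL9 spread more than its siCtrl libraries and still lay below them, with a log2 fold change of -0.46 ± 0.039 (SE). MRPL44 lies near the exit of the nascent chain and is not of a family shared with bacterial ribosomes. It was at 36.2, 37.6, 37.0, 35.0 and 36.5 CPM in siCtrl and at 25.9, 26.1, 26.4, 29.3 and 25.3 CPM in siDDX41. Its siDDX41 library 4 was the closest to the control, and the log2 fold change was -0.45 ± 0.044 (SE). MRPL42 was at 50.1, 51.5, 45.9, 47.3 and 47.7 CPM in siCtrl and at 36.9, 33.7, 35.9, 37.6 and 35.9 CPM in siDDX41, a log2 fold change of -0.43 ± 0.041 (SE). MRPL37 was at 119, 116, 110, 116 and 119 CPM in siCtrl and at 88.8, 91.7, 90.4, 94.5 and 97.3 CPM in siDDX41, a log2 fold change of -0.33 ± 0.032 (SE). MRPL42 and MRPL37 are also outside the families shared with bacterial ribosomes. All of these 5 genes were called by the quasi-likelihood test of edgeR, Benjamini-Hochberg adjusted, with adjusted p from 1.30e-13 for MRPL10 to 2.30e-10 for MRPL37. The other called falls of the large subunit, in MRPL35 (named after its values were seen) and MRPL33, were smaller (-0.18 and -0.16).

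The called rises of the large subunit numbered 18, and 10 of them exceeded 0.25. MRPL52, which sits in the central protuberance, was at 35.1, 38.2, 34.3, 36.4 and 36.2 CPM in siCtrl and at 55.3, 48.9, 52.0, 50.9 and 50.4 CPM in siDDX41. MRPL20, an rRNA-binding protein of the subunit core, was at 41.2, 42.4, 36.4, 41.0 and 39.4 CPM in siCtrl and at 59.5, 53.5, 55.4, 59.0 and 58.0 CPM in siDDX41. In both genes each siDDX41 library exceeded each siCtrl library by a wide margin. Their log2 fold changes were 0.52 ± 0.040 and 0.51 ± 0.041 (SE, adjusted p = 1.85e-12 and 4.98e-12 in the quasi-likelihood test of edgeR, Benjamini-Hochberg adjusted). MRPL41 was at 13.7, 18.6, 14.5, 14.8 and 16.8 CPM in siCtrl and at 23.9, 21.9, 21.77, 19.5 and 22.5 CPM in siDDX41, a log2 fold change of 0.48 ± 0.071 (SE). The lowest siDDX41 library of MRPL41, number 4, came close to siCtrl library 2. MRPL21 was at 24.8, 29.3, 23.7, 24.6 and 25.5 CPM in siCtrl and at 36.7, 33.6, 35.8, 36.0 and 34.2 CPM in siDDX41, a log2 fold change of 0.46 ± 0.049 (SE). MRPL3, which in bacteria reaches toward the peptidyl transferase centre, was at 112, 115, 107, 106 and 108 CPM in siCtrl and at 147, 135, 149, 145 and 147 CPM in siDDX41, a log2 fold change of 0.40 ± 0.032 (SE). MRPL3 was the most abundant of these genes in CPM and among those with the smallest error. MRPL21 and MRPL3 did not overlap between groups.

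MRPL12, the mobile stalk protein that MRPL10 holds, was among the 8 strongest rises, with a wide spread between libraries. Its siCtrl libraries were at 4.21, 7.10, 4.29, 4.24 and 5.83 CPM and its siDDX41 libraries at 6.44, 6.60, 8.59, 6.69 and 7.28 CPM. The groups overlapped, because siCtrl library 2 exceeded 3 siDDX41 libraries. The log2 fold change was 0.47 ± 0.14 (SE, adjusted p = 0.00653 in the quasi-likelihood test of edgeR, Benjamini-Hochberg adjusted). The call was lost without siCtrl replicate 1, 3 or 4 and without siDDX41 replicate 2, 3, 4 or 5, with adjusted p of 0.0168, 0.0188, 0.0166, 0.0116, 0.0162, 0.0130 and 0.0209 in the same quasi-likelihood test of edgeR, Benjamini-Hochberg adjusted. The stalk thus had MRPL10 down, MRPL12 up in these terms, and MRPL11 at a log2 fold change of 0.10 that was not called. MRPL11 was called without siCtrl replicate 2 or siDDX41 replicate 2 or 3 (0.12 each) and with DESeq2 size factors or no filter on low counts (0.11 each).

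**Figure D2:**
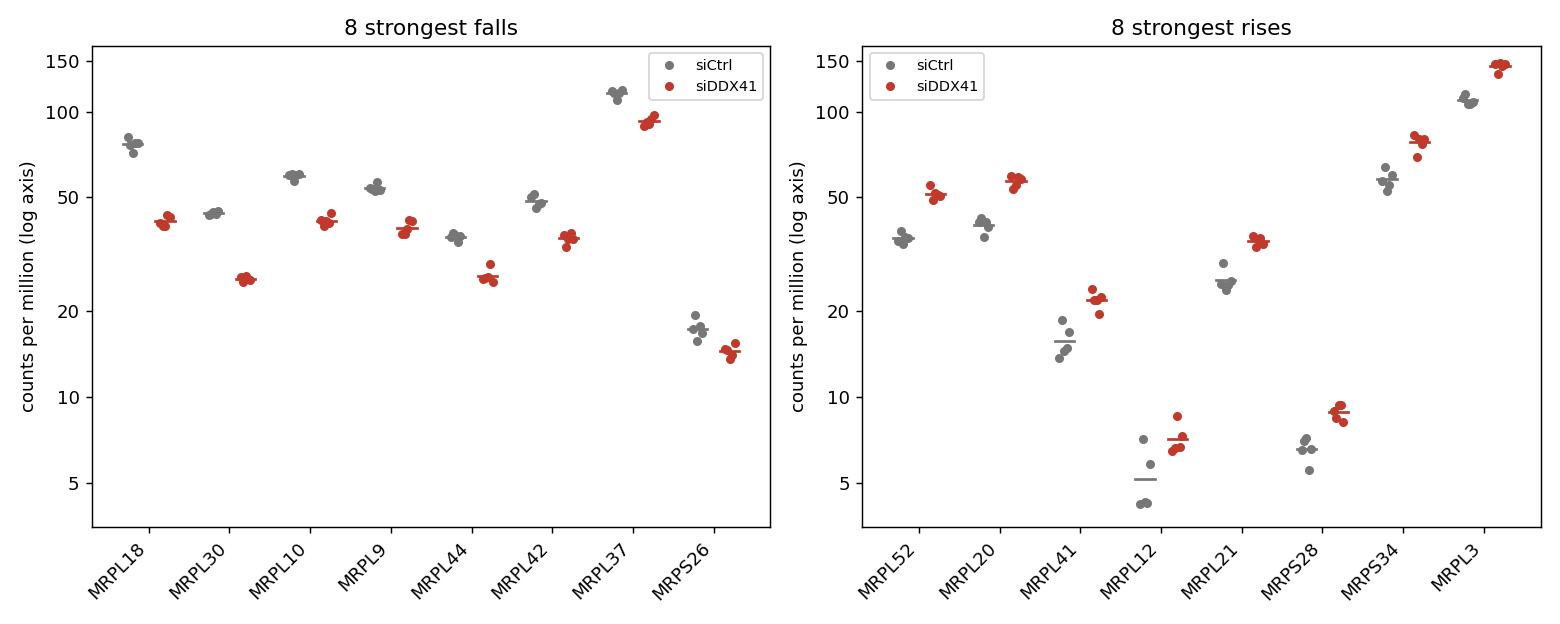
CPM (y axis, log scale) of the 8 genes called lower with the lowest and the 8 called higher with the highest fold change, in each library (points, siCtrl grey and siDDX41 red) with group means as lines. The groups are apart in 15 of the 16 genes and overlap in MRPL12, and MRPL18 drops from a mean of 77.0 to 41.2.

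The structural regions of the large subunit each held called genes of both directions, in shares that can be read beside the 30.3% higher and 32.1% lower of all genes tested. Of 9 genes of the central protuberance, 3 were called higher (MRPL52, MRPL46 and MRPL38, 33.3%) and 1 lower (MRPL18, 11.1%), and the median log2 fold change was 0.083. Of 8 tested genes around the polypeptide exit, 3 were called higher (MRPL50, MRPL17 and MRPL47, 37.5%) and 1 lower (MRPL44, 12.5%), with a median of 0.12. Among the 30 genes of families shared with bacteria 13 were higher and 6 lower, and among the 18 tested others 5 were higher and 3 lower. Their medians were 0.11 and 0.074. The other called genes in these sets, MRPL46, MRPL38, MRPL50, MRPL17 and MRPL47, had log2 fold changes of 0.37, 0.27, 0.32, 0.22 and 0.18 and were named after their values were seen, except MRPL38.

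The small subunit had a higher share of called rises, 16 of 27 genes (59.3%), than the large subunit, 18 of 48 (37.5%), where 30.3% of all genes tested were higher. Its called falls were 6 of 27 (22.2%) against 9 of 48 in the large subunit (18.8%), where 32.1% of all genes tested were lower, but its lowest fold change was -0.26 against -0.90. The median log2 fold change was 0.15 in the small and 0.092 in the large subunit, and 0.24 and 0.083 when genes that share exon bases with another gene were left out. With MRPS30 and MRPS18A counted in the large subunit, 15 small and 19 large subunit genes were higher, and the log2 ratio of the summed large over the summed small subunit was -0.071. The contrast between the subunits was not tested, and the called shares depend on single libraries. Without siDDX41 replicate 5, 11 of the 27 small and 15 of the 48 large subunit genes were called higher. The medians ranged from 0.14 to 0.17 in the small and from 0.072 to 0.12 in the large subunit when a library was left out. Without MRPS36, an alternative chosen after the data were seen, 15 small subunit genes were higher. Its own call (0.24) was lost without siCtrl replicate 2, 3 or 5 (0.23, 0.21 and 0.21), without siDDX41 replicate 2, 3 or 5 (0.24, 0.22 and 0.20), with the replicate block (0.24), with total counts as the only scaling (0.22) and with the DESeq2 Wald test (0.25). MRPS26, a protein of the body, was the lowest, at 17.3, 19.3, 15.7, 17.7 and 16.8 CPM in siCtrl and at 14.7, 14.6, 13.6, 14.01 and 15.4 CPM in siDDX41. The groups of MRPS26 were close to each other without overlapping, and the log2 fold change was -0.26 ± 0.058 (SE, adjusted p = 0.000203 in the quasi-likelihood test of edgeR, Benjamini-Hochberg adjusted). The highest were MRPS28 and MRPS34, also of the body. MRPS28 was at 6.49, 6.98, 7.15, 5.52 and 6.58 CPM in siCtrl and at 8.92, 8.43, 9.35, 9.33 and 8.13 CPM in siDDX41, a log2 fold change of 0.43 ± 0.077 (SE). MRPS34 was at 57.3, 64.1, 52.7, 55.2 and 60.0 CPM in siCtrl and at 82.7, 69.5, 80.3, 77.0 and 80.4 CPM in siDDX41, a log2 fold change of 0.43 ± 0.051 (SE). Both were without overlap, and siDDX41 library 2 was the lowest of its group in MRPS34.

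The head of the small subunit, which lines the path of mRNA and tRNA together with the body, had 6 of 8 genes higher, 1 lower (75% and 12.5%, where 30.3% and 32.1% of all genes tested were) and a median log2 fold change of 0.25. The genes that rose were MRPS9, MRPS33, MRPS7, MRPS10, MRPS31 and MRPS35, with log2 fold changes from 0.15 to 0.37. The call of MRPS31 (0.17) was lost without siCtrl replicate 2 or 3 or siDDX41 replicate 5, where its log2 fold change was 0.16, 0.15 and 0.15. MRPS14 was the lower gene, at -0.17, and its call was lost with the DESeq2 Wald test (-0.16) and without siCtrl replicate 4 or siDDX41 replicate 2 or 3 (-0.12, -0.15 and -0.14). The body had 8 of 15 tested genes higher (53.3%) and 5 lower (33.3%; MRPS26, MRPS16, MRPS11, MRPS21 and MRPS27), and its median was 0.14. The difference between head and body was not tested. Apart from MRPS26, the genes in these sets were named after their values were seen.

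Summed over its 48 tested genes, the large subunit reached 2459, 2499, 2328, 2444 and 2420 CPM in siCtrl libraries 1 to 5 and 2498, 2386, 2459, 2532 and 2532 CPM in siDDX41 libraries 1 to 5. The groups overlapped, and the mean differed by 2.12%, less than the spread between libraries of a group. Without siCtrl replicate 3 it differed by 1.04%, and without siDDX41 replicate 2 by 3.12%, so its size depends on single libraries. The small subunit reached 1420, 1446, 1366, 1409 and 1390 CPM in siCtrl and 1533, 1443, 1498, 1531 and 1522 CPM in siDDX41. Here the mean was 7.03% higher, and siDDX41 library 2 was the only library of its group not above the siCtrl range. The ratio of the large to the small subunit sum, in which the scaling of a library cancels, was 1.73, 1.73, 1.70, 1.73 and 1.74 in siCtrl and 1.63, 1.65, 1.64, 1.65 and 1.66 in siDDX41. Each siDDX41 library was below each siCtrl library. In the large subunit, 34 genes with a higher mean gained 208.7 CPM together, and 14 with a lower mean decreased by 157.3 CPM, of which the 3 largest losses made up 49.2%. In the small subunit, 20 genes gained 160.7 CPM and 7 decreased by 61.8 CPM, of which the 3 largest losses made up 79.0%. Without the 3 most abundant genes (MRPS16, MRPL51 and MRPS27) the log2 ratio of the small subunit sum was 0.18 in place of 0.098 and that of the large over the small subunit was -0.15 in place of -0.068, with the same directions.

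**Figure D3:**
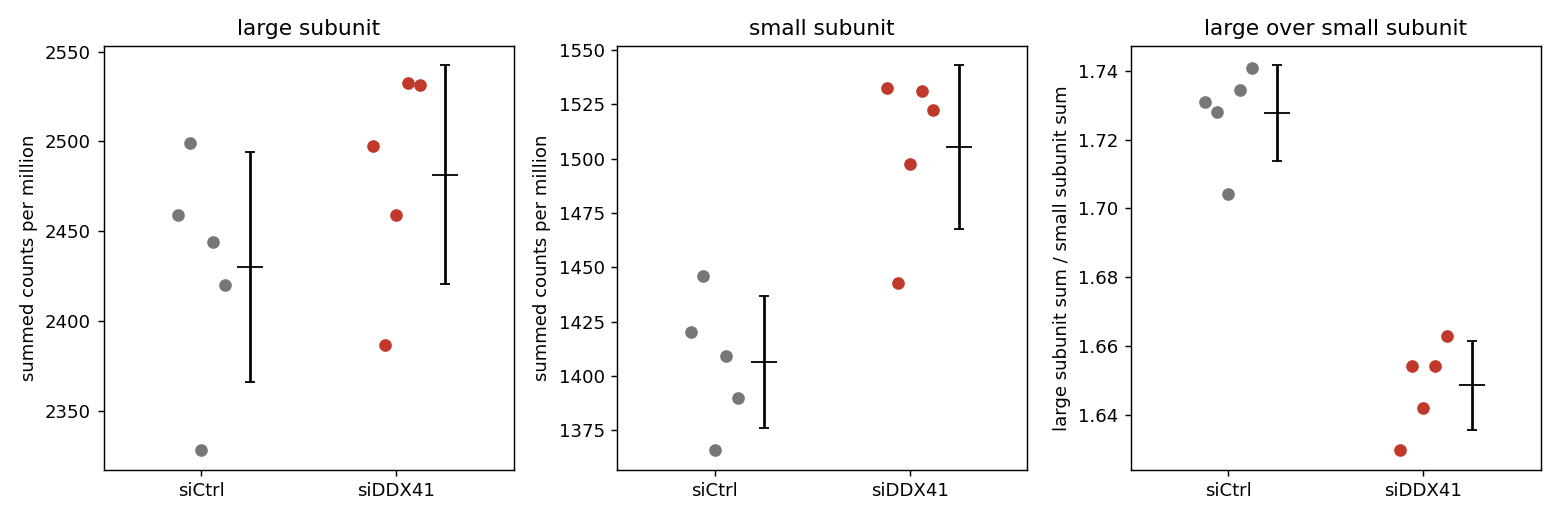
Summed CPM of the large subunit (left) and small subunit (middle) genes and their ratio (right) in each library, with mean and SD in black; the y axes do not start at 0. The ratio lies between 1.70 and 1.74 in siCtrl and between 1.63 and 1.66 in siDDX41.

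Levels differed between the genes by far more than the knockdown moved any of them. Per kilobase of the exons of the Ensembl canonical transcript, MRPL33 was the highest, at 216 CPM per kb over all 10 libraries, followed by MRPL51 at 200.4 and MRPL40 at 107.8. The order of MRPL33 and MRPL51 held in siCtrl (227.6 and 195.9 CPM per kb), while in siDDX41 they were level (204.3 and 204.9). This order rests on the length used, as reads were summed over all exons of a gene. The canonical transcript of MRPL33 has 508 bases, but all its exons together have 1532. For MRPL51 these are 898 and 1388 bases, with a higher mean in siCtrl (175.9 against 115.6 CPM). Over all exons MRPL33 would thus rank below MRPL51. MRPL33 was at 117, 116, 112, 122 and 111 CPM in siCtrl and at 104, 102, 96.6, 110 and 105 CPM in siDDX41, a log2 fold change of -0.16 ± 0.034 (SE). Its groups came close without overlapping. MRPL51 and MRPL40 had log2 fold changes of 0.065 ± 0.030 and 0.083 ± 0.032 (SE) that were not called (adjusted p = 0.0525 and 0.0218 in the quasi-likelihood test of edgeR, Benjamini-Hochberg adjusted), and without siDDX41 replicate 3 MRPL40 was called at 0.11 (adjusted p = 0.00551 in that test). The lowest were MRPS24 at 1.70 CPM per kb, MRPL42 at 2.72, whose canonical transcript spans 15557 bases of exon, and MRPL38 at 4.32. MRPL38 shared 1373 of its exon bases (41.1%) on the same strand with a gene of mean count 1.9. This makes its level and its fold change less certain. MRPS24 had a log2 fold change of 0.26 ± 0.19 (SE) and was not called; it ranged from 0.11 (without siDDX41 replicate 3) to 0.35 (without siCtrl replicate 3) when a library was left out. MRPL38 was at 5.02, 5.22, 5.26, 5.65 and 5.42 CPM in siCtrl and at 6.58, 7.60, 6.21, 5.71 and 6.04 CPM in siDDX41. Its log2 fold change of 0.27 ± 0.085 (SE) was called, and the call was lost without siCtrl replicate 1, 2 or 3 or siDDX41 replicate 1 or 2 (adjusted p = 0.0163, 0.0106, 0.0102, 0.0111 and 0.0279 in the quasi-likelihood test of edgeR, Benjamini-Hochberg adjusted) and with the DESeq2 Wald test (adjusted p = 0.0145). Across the 75 genes the log2 fold change had a Spearman correlation of -0.063 with the number of exons, -0.21 with transcript length and -0.26 with the mean CPM in siCtrl, given as a description of genes that share libraries.

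For 3 of the genes no comparison was possible. MRPS12 and MRPS18B were listed at 0 in each library, and MRPL45 had at most 2 counts. Neighbouring genes that most cells use were also listed at or near 0, among them TUBB near MRPS18B (0 counts in each library) and HNRNPL and ACTN4 on the chromosome of MRPS12 (at most 2 and 1 counts). Of the protein-coding genes within 200 kb that are in the tables, 14 of 14 around MRPS18B, 16 of 18 around MRPS12 and 3 of 5 around MRPL45 had at most 2 counts in any library. These 3 genes were therefore given no fold change.

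Many of the genes start close to a gene on the other strand, and the 2 strongest falls each had a neighbour that rose. A head-to-head neighbour was taken as a protein-coding gene on the other strand whose canonical start site lies upstream within 1000 bases. MITD1, a cytokinesis protein that starts 126 bases from MRPL30, was at 25.2, 24.2, 26.9, 26.5 and 27.2 CPM in siCtrl and at 37.9, 34.4, 32.4, 34.0 and 32.4 CPM in siDDX41, a log2 fold change of 0.39 ± 0.048 (SE). TCP1, a subunit of the cytosolic chaperonin that starts 865 bases from the canonical start of MRPL18, was at 419, 420, 395, 401 and 407 CPM in siCtrl and at 492, 445, 494, 480 and 490 CPM in siDDX41, a log2 fold change of 0.23 ± 0.029 (SE). In both genes the siDDX41 libraries were all above the siCtrl libraries. Both were called (adjusted p = 1.80e-08 and 3.26e-08 in the quasi-likelihood test of edgeR, Benjamini-Hochberg adjusted). MRPS11 and MRPL46, which start 320 bases apart, are both mitochondrial ribosomal protein genes. MRPS11 was at 42.8, 43.9, 39.9, 41.5 and 42.4 CPM in siCtrl and at 35.6, 34.3, 36.8, 36.4 and 37.9 CPM in siDDX41. MRPL46 was at 8.62, 8.53, 7.70, 7.19 and 8.50 CPM in siCtrl and at 9.80, 9.64, 11.04, 10.9 and 11.1 CPM in siDDX41. The first fell (-0.22 ± 0.040, SE) and the other rose (0.37 ± 0.071, SE), and neither overlapped between groups.

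In all, 27 head-to-head pairs included a mitochondrial ribosomal protein gene, and in 11 of them both genes were called. The directions were opposite in 8 of these 11 pairs (72.7%). Among all 344 head-to-head pairs of protein-coding genes with both genes called, 141 (41.0%) had opposite directions. The other opposite pairs were MRPS27 and PTCD2, MRPL13 and MTBP, MRPS7 and GGA3, MRPL2 and KLC4, and MRPL50 and ZNF189. KLC4, a kinesin light chain, fell the most among the neighbours (-0.66 ± 0.053, SE), while MRPL2 rose (0.28 ± 0.042, SE). The pairs with the same direction were MRPL37 and CYB5RL, which both fell, and MRPL47 and NDUFB5 as well as MRPS18C and HELQ, which both rose. These pairs are few, they were named after their values were seen, and whether their share differs from that of other pairs was not tested. Some pairs share exon bases on opposite strands, which makes their counts less certain. These were MRPS27 and PTCD2 (276 bases), MRPL2 and KLC4 (126), MRPS7 and GGA3 (82), MRPL13 and MTBP (3), and MRPL37 and CYB5RL (140).

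Of 5 genes for proteins of the mitochondrial ribosome that carry other symbols, 3 were called higher and 0 lower, where 30.3% and 32.1% of all genes tested were, with a median log2 fold change of 0.12. The count of higher genes depended on single libraries: it was 2 to 5 when a library was left out, and 5 without siCtrl replicate 2, where AURKAIP1 (0.15) and CHCHD1 (0.15) were added. PTCD3, at 0.093, lost its call without siCtrl replicate 1, 3, 4 or 5 (0.095, 0.095, 0.090 and 0.077) and without siDDX41 replicate 2, 4 or 5 (0.095, 0.082 and 0.093), with the replicate block (0.093) and with total counts as the only scaling (0.082). These 3 genes were named after their values were seen. DAP3, a GTP-binding protein of the small subunit, was at 107, 111, 114, 111 and 111 CPM in siCtrl and at 143, 137, 143, 144 and 146 CPM in siDDX41, a log2 fold change of 0.36 ± 0.028 (SE). GADD45GIP1, at the exit of the large subunit, was at 19.7, 22.5, 16.4, 17.6 and 19.2 CPM in siCtrl and at 23.2, 22.0, 24.3, 23.7 and 25.5 CPM in siDDX41, a log2 fold change of 0.31 ± 0.064 (SE). DAP3 was apart between groups, and siCtrl library 2 of GADD45GIP1 reached into the siDDX41 range. The RNA components rose as well. MT-RNR1, the small subunit rRNA, was at 386, 341, 373, 425 and 354 CPM in siCtrl and at 468, 436, 443, 459 and 474 CPM in siDDX41 (log2 fold change 0.28 ± 0.051, SE), and MT-RNR2, the large subunit rRNA, was at 2796, 2232, 2731, 3041 and 2563 CPM in siCtrl and at 3628, 3233, 3292, 3158 and 3142 CPM in siDDX41 (0.30 ± 0.081, SE). The rRNAs were read in libraries of polyadenylated RNA, which need not follow the total rRNA. MT-RNR2 was near the threshold (adjusted p = 0.00875 in the quasi-likelihood test of edgeR, Benjamini-Hochberg adjusted) and lost its call without siCtrl replicate 1, 3 or 5 (0.0143, 0.0180 and 0.0227), without any of the siDDX41 replicates 1 to 5 (0.0161, 0.0150, 0.0162, 0.0129 and 0.0120), with total counts as the only scaling (0.0102) and without the filter on low counts (0.0186).

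Of 26 tested factors that assemble the ribosome, 7 were higher and 7 lower (26.9% each), close to the 30.3% and 32.1% of all genes tested, with a median log2 fold change of 0.010 that turned to -0.0014 when libraries were scaled by total counts. TFB1M, which methylates the small subunit rRNA, rose from 12.4 ± 0.78 CPM in siCtrl to 19.998 ± 0.72 CPM in siDDX41 (SD of 5 libraries), with a log2 fold change of 0.69 ± 0.055 (SE). FASTKD2, an RNA-binding protein needed for the large subunit rRNA, rose from 57.8 ± 0.66 to 81.1 ± 2.8 CPM (SD), a log2 fold change of 0.49 ± 0.033 (SE). MPV17L2, an inner membrane protein of large subunit assembly that was named after its values were seen, fell from 11.4 ± 1.0 to 5.66 ± 0.54 CPM (SD), a log2 fold change of -1.01 ± 0.080 (SE), which is beyond that of MRPL18. The adjusted p of these 3 genes was at most 2.99e-12 (quasi-likelihood test of edgeR, Benjamini-Hochberg adjusted).

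Factors that use the ribosome and genes that express the mitochondrial genome were mostly higher. Of 16 tested translation factors 10 were higher and 2 lower (MTRF1 and MTRFR), or 62.5% and 12.5% where 30.3% and 32.1% of all genes tested were, with a median log2 fold change of 0.16. GUF1 and GFM2, GTPases that act on the ribosome during elongation and recycling, rose from 70.2 ± 2.3 to 94.7 ± 2.4 CPM and from 66.5 ± 1.1 to 89.0 ± 1.8 CPM (SD of 5 libraries), with log2 fold changes of 0.43 ± 0.032 and 0.42 ± 0.030 (SE). Of 15 genes for mitochondrial transcription, replication and RNA processing 9 were higher (60.0%) and 1 lower (ELAC2), with a median of 0.17. The helicase TWNK and the exoribonuclease PNPT1 rose by log2 fold changes of 0.49 ± 0.039 and 0.47 ± 0.032 (SE). TWNK and MRPL43 start 46 bases apart on opposite strands, and MRPL43 had a log2 fold change of -0.011 ± 0.043 (SE) that was not called. The 2 genes shared 149 exon bases, and MRPL43 shared 1215 with SEMA4G on the other strand, which makes their counts less certain.

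Of 9 transcriptional regulators known to act on such genes, 3 were higher and 4 lower (33.3% and 44.4%, where 30.3% and 32.1% of all genes tested were). Their median log2 fold change was -0.0014, which turned positive with DESeq2 size factors (0.0053), with the DESeq2 Wald test (0.0087) and without the filter on low counts (0.0035), as well as without siCtrl replicate 1, 2 or 4 (0.0065, 0.00027 and 0.000055) or siDDX41 replicate 3 or 5 (0.0010 and 0.0199). PPARGC1B, a coactivator of mitochondrial biogenesis, was at 5.72, 6.57, 5.80, 5.73 and 5.71 CPM in siCtrl and at 15.7, 14.2, 15.8, 13.97 and 13.5 CPM in siDDX41, a log2 fold change of 1.31 ± 0.069 (SE), while its relative PPARGC1A, named after its values were seen, fell from 5.00 ± 0.73 to 2.35 ± 0.57 CPM (SD), a log2 fold change of -1.08 ± 0.14 (SE). MYC was at 63.5, 68.4, 63.2, 63.8 and 63.2 CPM in siCtrl and at 93.5, 88.8, 96.7, 91.0 and 89.4 CPM in siDDX41, a log2 fold change of 0.51 ± 0.034 (SE). The 2 groups of PPARGC1B and of MYC were apart. YY1 and GABPA, whose binding letters were counted in the promoters, had log2 fold changes of 0.0059 and -0.0014 and were not called, and NRF1 and GABPB1 fell by 0.26 and 0.20 on the log2 scale. These 4 regulators, like MTRF1, MTRFR, ELAC2, MRPL43 and MRPL11, were named after their values were seen. The remaining called regulators, also named after their values were seen, were ESRRA, which rose (0.56 ± 0.050, SE), and PPRC1, which fell (-0.13 ± 0.031, SE).

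The median and the called shares of the mitochondrial ribosomal protein genes lay between those of cytosolic ribosomal protein genes and of respiratory chain genes, and the distance between their quartiles was the largest of the 3 lists. Of 76 tested cytosolic ribosomal protein genes, 19 were higher (25%) and 18 lower (23.7%), where 30.3% and 32.1% of all genes tested were. Their median log2 fold change was 0.019, and 0.0086 (without siCtrl replicate 1) to 0.031 (without siCtrl replicate 2) when a library was left out. Of 74 tested nuclear genes for respiratory chain subunits, 49 were higher (66.2%) and 4 lower (5.41%), with a median of 0.18. This list was taken by symbol, and it includes the ATP synthase genes (ATP5) and leaves out COX4I1. The distance between the quartiles was 0.27 for the mitochondrial ribosomal protein genes, 0.17 for the cytosolic ones and 0.23 for the respiratory chain. The differences between these lists were not tested.

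How strands were set and how reads with several matches were counted is not given in the sources used here, so that genes with shared exon bases or near copies are less certain. Of the 75 genes, 33 shared exon bases with another counted gene, and in 23 that partner reached 10% of their mean count or more. Among the genes with the strongest changes these were MRPL37 (33 bases with SSBP3 and 140 with CYB5RL), MRPL20 (138 bases with MRPL20-AS1) and MRPS34 (341 bases with EME2). MRPL33 shared 324 bases with BABAM2 on the same strand, and MRPL51 shared 383 bases with NCAPD2, which had a higher mean count. MRPL30 shared 564 and 380 bases on the same strand with 2 genes of low mean count (8.2 and 0.1), and MRPL9 shared 113 bases on the same strand and 265 on the other with genes that had mean counts of at most 17.3. MRPL18, MRPL10, MRPL44 and MRPL42 shared none, although MRPL42 has 5 annotated pseudogenes. In 34 of the 75 genes at least 1 pseudogene is annotated.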

How the data were processed

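The authors sequenced stranded polyadenylated RNA libraries as single reads, converted them with bcl2fastq 2.19, used STAR 2.7 for alignment to hg38 with GENCODE 25, and summed reads over genes by featureCounts 1.6. What was deposited are these counts, as whole numbers that were not normalized. Groups and replicate numbers came from the labels. Gene names, positions and transcripts were taken from GENCODE 44 on GRCh38, joined by Ensembl identifier without version, which named 98.7% of the tested genes and all 78 mitochondrial ribosomal protein genes.

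The comparison used edgeR 4.0.16 under R 4.3.3: genes were filtered by filterByExpr within groups, scaled by TMM, fitted by glmQLFit with its robust option and tested by glmQLFTest, and p was adjusted after Benjamini-Hochberg over 16143 genes with a threshold of 0.01. The code was tried on simulated counts. Standard errors were derived from the F statistic. DESeq2 1.42.0 was an alternative, and tables were made in Python 3.11.15 with pandas 2.3.3. Other alternatives were the scaling, the filter, the threshold, the replicate block, each library left out, and other rules for members and sums. Named genes were DDX41, the 8 genes called lower and the 8 called higher with the most extreme fold changes, the 3 highest and the 3 lowest per kilobase, any member not tested, and from each other list the 2 with the smallest adjusted p. The members and the lists were chosen with earlier results of these data known, and the head-to-head pairs and promoter letters were added after the data were seen. No duplicate libraries were found: the counts of each of the 20 pairs within a group differed by more than sampling noise.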

Additional observations from a re-analysis of the deposited data

Results flagged for a closer look

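In 7 of 74 groups of 5 libraries, the highest or lowest library stood apart by more than 0.71 of the range of its group, and chance alone gives about 1 in 20. The 7 do not include MRPL45, whose only counts were in siCtrl library 4 and siDDX41 library 5. MRPS12 and MRPS18B, at 0 in each library, had no range. MRPL10 was at 57.3 CPM in siCtrl library 3 and at 59.9 to 60.7 in the others. MRPL40 was also low in siCtrl library 3, at 74.9 CPM against 78.4 to 79.0, and in siDDX41 library 3, at 77.8 against 83.0 to 84.5. MRPL3 was at 135 CPM in siDDX41 library 2 against 145 to 149. MRPL44 was at 29.3 CPM in siDDX41 library 4 against 25.3 to 26.4. Of the other genes, PPARGC1B was at 6.57 CPM in siCtrl library 2 against 5.71 to 5.80, and MYC at 68.4 against 63.2 to 63.8 in the same library. In MRPL10, MRPL3, MRPL44, PPARGC1B and MYC the library did not bring the groups to overlap.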

How the results depend on the processing

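Leaving out each library in turn gave 4648 to 4823 higher and 4968 to 5121 lower genes over all genes. The mitochondrial ribosomal protein genes gave 26 to 35 higher and 14 to 15 lower, with a median log2 fold change of 0.096 to 0.14, and 25 of the 34 and 14 of the 15 were called in every such fit. The large subunit gave 15 to 20 higher and 9 lower with a median of 0.072 to 0.12, and the small subunit 11 to 15 higher and 5 to 6 lower with a median of 0.14 to 0.17. DDX41 lay between -2.04 and -1.96. The log2 ratio of the sums, left out in this way after the data were seen, was 0.042 to 0.070 for all members, 0.015 to 0.044 for the large and 0.088 to 0.11 for the small subunit, and that of large over small was -0.073 to -0.064. An absolute log2 fold change over 0.25 left 18 higher and 8 lower genes, 10 higher in the large subunit, and 8 higher and 1 lower in the small subunit. Without members that share exon bases, fewer genes were counted: 19 higher and 7 lower, 10 and 5 in the large subunit, and 9 and 2 in the small subunit, whose median was 0.24. Without the 3 most abundant genes (MRPS16, MRPL51 and MRPS27), the log2 ratio of the summed small subunit level was 0.18 in place of 0.098. The log2 ratio of the large over the small subunit sum was -0.068, and it was -0.15 without those 3 genes, -0.084 with the subunits of other symbols added and -0.15 without members that share exon bases; the cause was not tested.

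With the replicate block, 31 members were higher and 15 lower, and those 31 and 15 were all called without it. Libraries with the same number did not deviate together over the tested genes (correlations of -0.078 to 0.060). This cannot show whether they shared a culture or a preparation, which the labels do not say. For the 34 named genes with a fit, 486 of 510 values in 15 other settings kept direction and call, 23 lost the call (in MRPL12, MRPL38 and MT-RNR2) and 1 gained it (MRPL40). Why these calls depend on the setting was not tested.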
